A study of Mus musculus with 4 samples.

Results

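Cystatins are inhibitors of cysteine proteases. The 5 family members Cst6, Cst3, Cstb, Stfa1 and Stfa3 were followed here together with the lysosomal proteases Lgmn, Ctsl, Ctsb and Ctsd in single epidermal cells of mouse back skin. These 9 genes were listed by name, with earlier results of these data known, and each matched 1 row of the 32479 genes in the tables. The cells came from female mice on a C57BL/6N background at postnatal day 19, and all of them carried floxed Cers4 alleles. The control mice (CerS4 fl/fl K14Cre-, n = 2) had no Cre, whereas the mice with an epidermal deletion of ceramide synthase 4 (CerS4 fl/fl K14Cre+, written CerS4epi-/-, n = 2) carried a Cre transgene under the keratin 14 promoter. That promoter is active in keratinocytes, so that Langerhans cells and T cells of the same skin were not the target of the deletion. Single cells were freed with DNase I, Liberase and papain, and papain is itself a cysteine protease of the family that cystatins inhibit. They were captured in microwells and their 3′ RNA ends were counted as unique molecules. The comparison asks how epidermal loss of CerS4 changed the transcripts of these inhibitors and their targets in each epidermal cell class.

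Stefins (Cstb, Stfa1 and Stfa3) are type 1 cystatins, small proteins without a signal peptide that act inside the cell. Cst6 (cystatin E/M) and Cst3 (cystatin C) are type 2 cystatins, which are secreted. In skin, cystatin E/M is best known as an inhibitor of legumain (Lgmn), an asparaginyl endopeptidase, and of the papain-like protease cathepsin L (Ctsl), and mice that lack it have a disturbed cornification and hair follicle. Cathepsin B (Ctsb) is a further papain-like protease that cystatins inhibit. Cathepsin D (Ctsd) is an aspartic protease and is not a cystatin target. It belongs to the same cascade, since cathepsins L and D are both processed in the lysosome and take part in the terminal differentiation of keratinocytes.

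The 4 libraries held 8480 and 9086 cells from the control mice and 9017 and 7567 cells from the CerS4epi-/- mice, 34150 in all, with totals of 39231945 to 53106317 counts and median depths of 3266 to 3884 counts per cell. Cells were placed in classes by marker genes, none of which is a cystatin or a protease followed here. The interfollicular epidermis (IFE) was divided into basal cells (13134), cells with both basal and spinous markers (7084), spinous cells (4383) and granular cells (3019). Krt79 and Defb6 defined the upper hair follicle (uHF, 4914 cells), Krt75 and Fgf18 the inner bulge gate (173 cells), Cd207 and MHC class II genes the Langerhans cells (231) and T cell receptor genes the T cells (447). A further gate of 543 cells rested on Lhx2 or Cd34 with other outer bulge markers. Cd34 was counted in only 55 cells of the series, and the summed uHF markers of that gate (14400 to 16290 counts per 1000000, CPM) exceeded its summed outer bulge markers (2013 to 2760 CPM), so it is called the Lhx2/Cd34 gate here and not the outer bulge. Counts were summed over the cells of 1 class in 1 mouse, and levels below are CPM of such a sum. The basal class can also hold follicle cells that miss the limits of the follicle gates. Basal markers summed to 26900 to 31920 CPM in the inner bulge gate. Outer bulge markers in the basal class summed to 117 and 87.5 CPM in control and 297 and 294 CPM in CerS4epi-/- mice. Each count stands for 1 molecule, except that reads that fit several genes are divided. Introns were counted as well as exons, so levels of different genes can be set side by side only roughly.

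The cell barcodes set a limit on every comparison of the genotypes. The 2 control libraries shared 0 barcodes where 87.1 would be shared if they were drawn at random, and the 2 CerS4epi-/- libraries shared 0 where 77.1 would be. Libraries of different genotype shared 64 to 102. The mice of 1 genotype may thus have been captured in 1 run and separated by sample tags. No label names a run, and if this is so, genotype and run cannot be told apart. Free RNA differed between the genotypes as well. Among barcodes with 10 to 100 counts, Cst6 stood at 919 and 695 CPM in the control libraries and at 2516 and 2796 CPM in the CerS4epi-/- libraries, and Cstb at 390 and 363 against 1043 and 1204 CPM. Cers4 itself was sparse (17.4 and 3.37 CPM in the control mice, 4.21 and 7.73 CPM in the CerS4epi-/- mice). A 3′ tag need not lie in the deleted part of the gene, so these values do not check the genotype labels. With 2 mice per group an exact permutation test of a single value cannot reach significance, and the tests below are edgeR's quasi-likelihood test over all genes of a class with Benjamini-Hochberg adjustment, called at an adjusted p under 0.05.

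**Figure D1:**
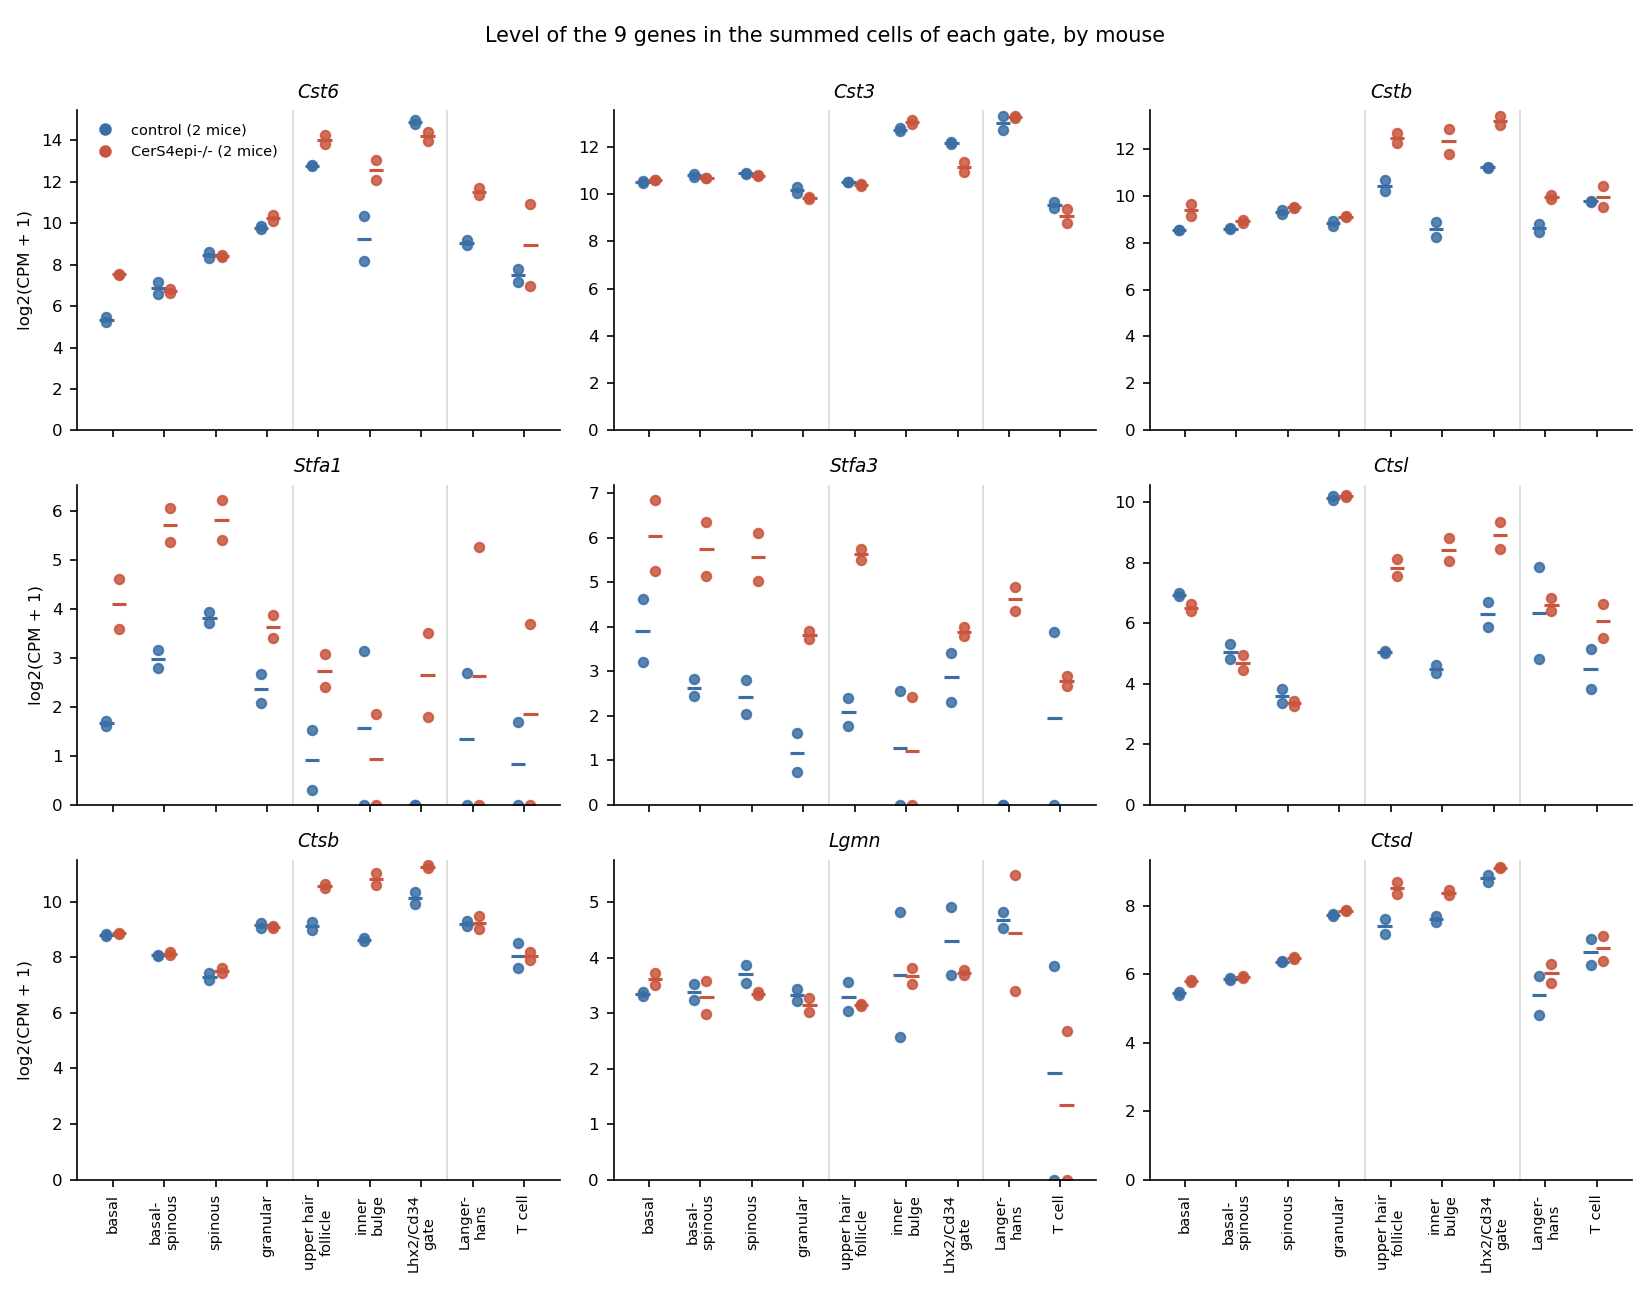
Level of each of the 9 genes by cell class, as log2(CPM + 1) of the counts summed per class and mouse. Each dot is 1 mouse (blue control, red CerS4epi-/-) and each bar the mean of a genotype. Cst6 spans the widest range, from 36.3 CPM in a control basal sum to 32030 CPM in a control Lhx2/Cd34 sum, and Lgmn stays near 10 CPM in the IFE and the uHF.

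Across the IFE the 2 main targets of cystatin E/M behaved differently. Ctsl fell from basal to spinous cells and was very high in granular cells, at 107 ± 20.1, 29.2 ± 7.33, 10.3 ± 2.07 and 1155 ± 49.3 CPM in basal, basal-spinous, spinous and granular cells (mean ± SD, n = 4 mice of both genotypes). The change from basal to spinous cells was −3.06 ± 0.52 on the log2 scale (± SE, adjusted p = 2.64e-06) and that from spinous to granular cells 7.34 ± 0.60 (adjusted p = 4.04e-13). Lgmn remained low throughout, between 8.46 ± 1.11 CPM in granular and 10.6 ± 2.07 CPM in spinous cells. Its rise from basal to spinous cells (0.40 ± 0.17, adjusted p = 0.035) was lost in 9 of 15 alternative settings and its means lie within the spread of their neighbours.

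Ctsb followed Ctsl with a smaller amplitude, at 456 ± 14 CPM in basal, 272 ± 11.3 in basal-spinous, 169 ± 19.7 in spinous and 552 ± 35.9 CPM in granular cells. It fell by 1.11 on the log2 scale from basal to spinous cells (adjusted p = 0.000785) and rose by 2.28 ± 0.29 from spinous to granular cells (adjusted p = 2.16e-08). Ctsd rose at both steps, from 48.6 ± 7.17 to 84.4 ± 3.92 and 219 ± 12.5 CPM (1.14 ± 0.15 and 1.93 ± 0.15, adjusted p = 3.7e-08 and 2.15e-13). Granular Ctsl was unevenly spread over single cells. The median granular cell held 3.09 to 3.48 counts per 10000 in the 4 mice, and the cell at the 90th percentile 36.6 to 41.7.

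The inhibitors took other courses. Cst6 stood at 112 ± 83.6 CPM in basal, 112 ± 21.7 in basal-spinous, 348 ± 33.2 in spinous and 1054 ± 220 CPM in granular cells. The equal means of the first 2 classes hide opposite courses of the genotypes. From basal to basal-spinous cells control mice went from 36.3 and 43.0 to 142 and 93.6 CPM. CerS4epi-/- mice went from 182 and 186 to 99.9 and 114 CPM. Spinous exceeded basal cells by 2.38 ± 0.59 (adjusted p = 0.000554, lost with gates on thinned counts) and granular exceeded spinous cells by 2.02 ± 0.57 (adjusted p = 0.00239). Cst3 was the most abundant inhibitor of basal and spinous cells, at 1514 ± 65.3 and 1808 ± 84.2 CPM, a rise of 0.58 ± 0.18 (adjusted p = 0.00425) that was lost with scaling by total counts and without control mouse 1. In granular cells it stood at 1037 ± 171 CPM, about level with Cst6, and its difference from spinous cells missed the threshold. Cstb varied little, from 432 ± 55.7 to 678 ± 64.5 CPM, and passed the test at neither step.

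Both short stefins of the list were scarce. Stfa1 rose from basal to spinous cells (2.32 ± 0.22, adjusted p = 9.86e-12) and fell again in granular cells (−1.49 ± 0.23, adjusted p = 9.27e-07), while Stfa3 fell at both steps (−0.61 ± 0.20 and −1.26 ± 0.27, adjusted p = 0.00751 and 0.000114). The first Stfa3 call was lost in 4 of 15 alternatives and the second in 2, among them the fit without CerS4epi-/- mouse 1. Of the 9 genes, 5 were higher and 3 lower in spinous than in basal cells, where 32.9% and 37.4% of all 13913 genes tested were. In granular against spinous cells 4 were higher and 2 lower, against 29.5% and 34.2% of all genes. The median of all genes in this last comparison moves by −0.541 on the log2 scale if libraries are scaled by total counts alone, and the share of higher calls from 46.4% to 23.6%, so differences of that size depend on the scaling. For spinous against basal cells the shift is −0.325 and the share of higher calls moves from 46.8% to 30.7%.

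**Figure D2:**
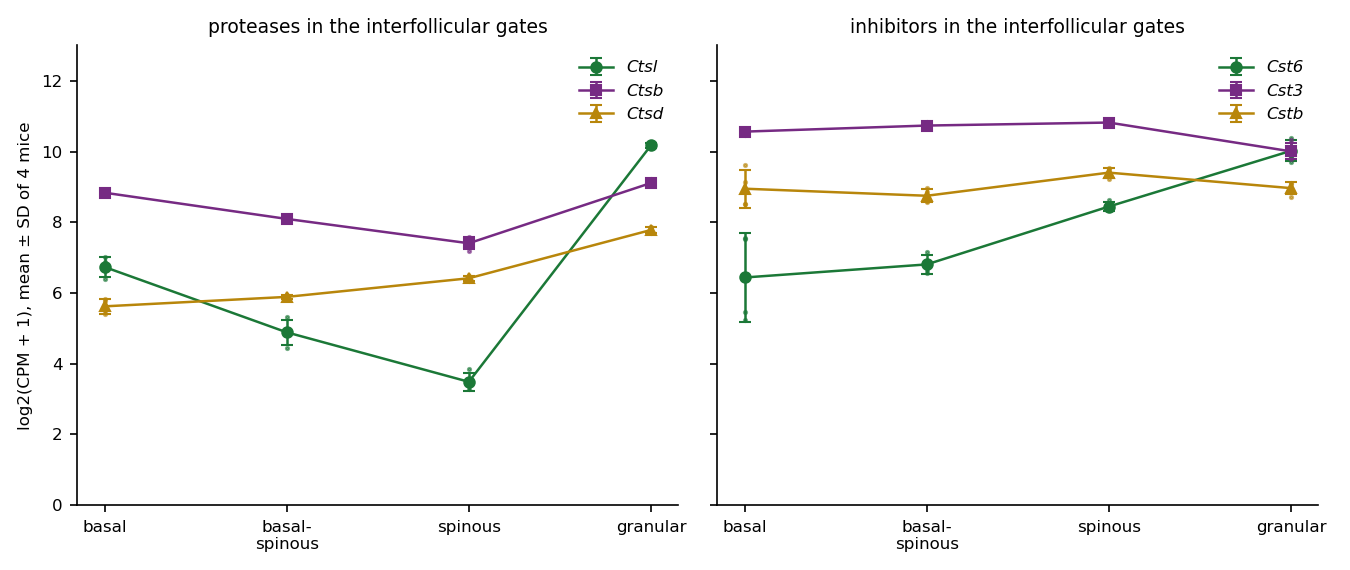
Proteases (left) and inhibitors (right) across the classes of the IFE, as log2(CPM + 1), mean ± SD of the 4 mice. Ctsl dips to 10.3 CPM in spinous cells and reaches 1155 CPM in granular cells, while the mean of Cstb stays between 432 and 678 CPM. The mean of Cst6 is level from basal to basal-spinous cells, where control mice rise and CerS4epi-/- mice fall, and then rises in both.

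Cst6 was a gene of the hair follicle more than of the IFE. In uHF cells it reached 12050 ± 6124 CPM, 7.04 ± 0.72 log2 units above basal cells (adjusted p = 1.44e-10), and in the Lhx2/Cd34 gate 24700 ± 7077 CPM (8.35 ± 0.76, adjusted p = 3e-11). These top levels overlapped between mice of the 2 classes. Cstb was higher than in basal cells by 2.72 ± 0.44 in uHF cells (adjusted p = 1.8e-06) and by 3.40 in the Lhx2/Cd34 gate (adjusted p = 1.09e-07). Ctsd (2.60 ± 0.16) and Ctsb (1.22 ± 0.29) were also higher in uHF cells, and Stfa1 (−1.22) and Stfa3 (−0.68) were lower, both calls being lost without CerS4epi-/- mouse 1. Here 28.5% and 30.5% of all genes were higher and lower. With scaling by total counts alone the median of all genes in this comparison moves by −0.169 and the share of higher calls from 48.3% to 36.4%.

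In the Lhx2/Cd34 gate 6 of the 9 genes were higher than in basal cells and 1 lower (background 21.2% and 22.3%), with Ctsl at 1.37 (adjusted p = 0.0245, lost in 5 of 15 alternatives including DESeq2 and the fits without either CerS4epi-/- mouse) and Ctsd at 3.44 (adjusted p = 4.87e-18). Inner bulge cells had 5 higher and 1 lower (background 14% and 15.8%). Cst3 led there in level, with 6985 and 6506 CPM in the control and 8982 and 7925 CPM in the CerS4epi-/- mice, 2.32 log2 units above basal cells (adjusted p = 2.04e-12). All 4 inner bulge sums lay above every basal sum. These tests between classes pool the genotypes. In the control mice alone Ctsl stood lower in the Lhx2/Cd34 gate (58.1 and 103 CPM) than in basal cells (117 and 128 CPM). Control Ctsb stood at 414 and 378 CPM in the inner bulge gate against 459 and 437 CPM in basal cells. Control Cstb stood there at 469 and 304 against 366 and 367 CPM. The other genes called higher in these gates exceeded the basal sums in both control mice.

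In the immune cells the balance of the family was different. Cst3 reached 10170 and 6713 CPM in control and 9616 and 10030 CPM in CerS4epi-/- Langerhans cells, 2.55 ± 0.19 above basal cells (adjusted p = 9.25e-14). Cystatin C is abundant in antigen-presenting cells, where it meets cathepsin S. Ctss stood in the Langerhans cells at 1387 and 949 CPM in control and 1232 and 1388 CPM in CerS4epi-/- mice. Among the 9 genes 3 were higher and 1 lower in Langerhans than in basal cells (background 16.7% and 18.6%), and in T cells 2 were higher and 3 lower (background 20.3% and 23.7%). Cst3 was lower in T cells than in basal cells (−1.44, adjusted p = 6.02e-08). For these immune comparisons size factors move the median of all genes by 0.198 and 0.217, and the share of higher calls from 47.2% to 59.0% in Langerhans cells and from 46.1% to 58.4% in T cells.

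A Cst6 signal in immune cells gives a measure of RNA from other cells, since neither cell class is known as a source of cystatin E/M. Doublets were not removed, so free RNA and a second cell under the same barcode cannot be told apart in this signal. At least 1 Cst6 count was found in 10.4% and 7.58% of control and 14.8% and 23.6% of CerS4epi-/- T cells, whose median depths were 1541 to 1906 counts. Of the deeper basal cells (median 2591 to 3065 counts) 7.40% and 8.32% of the control and 17.3% and 18.8% of the CerS4epi-/- cells held a Cst6 count. After thinning every cell to 1200 counts the basal shares were 3.79% and 4.55% against 8.61% and 11.1%. The basal shares did not exceed those of T cells as a group. Doublets can add to the T cell shares, so this does not show how much basal Cst6 came from other cells. After the same thinning 54.6% to 60.7% of granular and 70.3% to 75.8% of uHF cells held a Cst6 count, against 6.06% to 15.7% of T cells. The uHF and Lhx2/Cd34 sums lay above every immune sum in CPM, whereas the granular sums (841 to 1337 CPM) lay below both CerS4epi-/- Langerhans sums (3278 and 2595 CPM).

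The relatives of the 9 genes, from lists of the cystatin family and of the cathepsins, completed the picture of the classes. Csta1, a stefin A of the cornified envelope, rose by 4.13 from basal to spinous and by 4.43 from spinous to granular cells. Ctsh rose by 2.66 from spinous to granular cells. In Langerhans cells Ctss (9.13 above basal cells), the aspartic protease Napsa (10.60) and Ctsz (4.18) were high, and in T cells Ctsw (13.81), the leukocyte cystatin Cst7 (12.01) and Ctsc (3.37), which activates granzymes.

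Comparing the genotypes within a class, 28 of 69 tests of the 9 genes were called higher and 1 lower in CerS4epi-/- mice. In basal cells 5 of 9 were higher (4.34% of all genes were), in basal-spinous cells 3 (2.42%), in spinous cells 2 (2.13%), in granular cells 4 (8.04%) and in uHF cells 7 of 9 (7.6%). Of 6 tested in the inner bulge gate 4 were higher (3.58%), and in the Lhx2/Cd34 gate 3 of 6 were higher (3.53%) and 1 lower (4.55%). The median log2 difference over the 9 genes was 0.42 in basal, 0.09 in basal-spinous, 0.10 in spinous, 0.22 in granular and 1.47 in uHF cells, while the median of all genes lay between −0.014 and 0.007 in these classes. Over the 6 genes tested it was 2.62 in the inner bulge gate and 0.73 in the Lhx2/Cd34 gate, with all genes at 0.01 and 0.015. In Langerhans cells edgeR called 0 of 6 (0% of all genes), with 2 of the 6 at an unadjusted p under 0.05 and 1 (Cst6) called by DESeq2. In T cells it called 0 of 6 (0.402%), again with 2 at an unadjusted p under 0.05 and 0 called by DESeq2. Over the sum of all cells 6 of 9 were higher (8.18%). With scaling by total counts alone, the share of higher calls among all genes moved from 61.0% to 46.1% in basal, from 60.9% to 39.1% in granular and from 55.3% to 44.8% in uHF cells. A different mix of cells inside a class and a different amount of RNA per cell cannot be told apart in these sums.

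**Figure D3:**
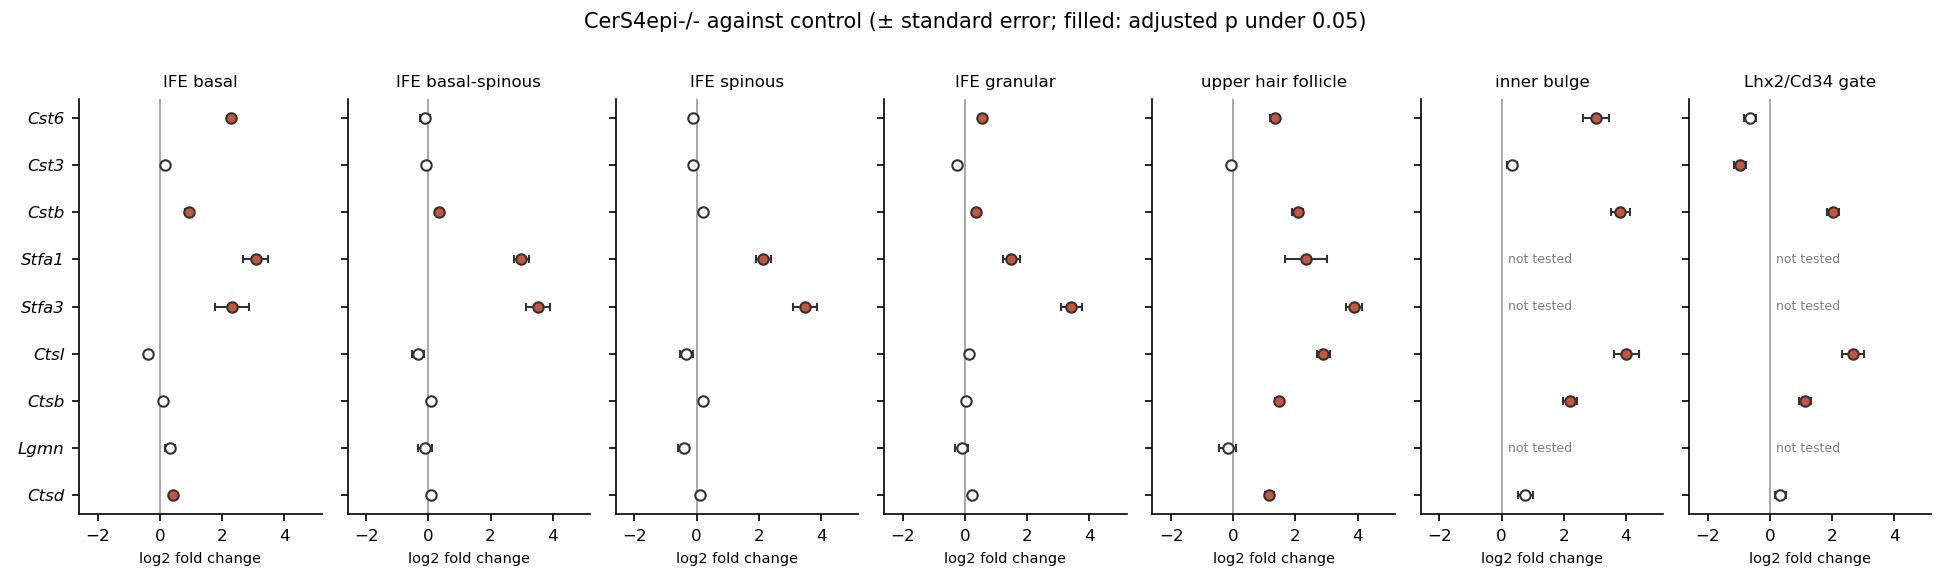
Difference between CerS4epi-/- and control mice for each of the 9 genes, 1 panel per cell class, as log2 fold change ± SE from edgeR (filled points: adjusted p under 0.05, open points: not called). Stfa1 and Stfa3 are called higher in all 4 classes of the IFE, and Ctsl reaches 2.91 in the uHF and 4.02 in the inner bulge gate.

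Stfa1 and Stfa3 were higher in CerS4epi-/- mice in every class of the IFE. In spinous cells Stfa1 measured 14.4 and 12.2 CPM in the control and 74.1 and 41.8 CPM in the CerS4epi-/- mice, and Stfa3 5.96 and 3.10 against 68.5 and 31.8 CPM. The groups did not overlap, and the differences were 2.14 ± 0.25 (adjusted p = 0.0044) and 3.5 ± 0.39 (adjusted p = 0.00391). At least 1 Stfa1 count was present in 10.3% and 8.34% of control and 33.7% and 24.9% of CerS4epi-/- spinous cells (median depths 7117 to 8207 counts), against at most 2.14% of the T cells of any mouse. Thinned to 1200 counts the spinous shares were 1.66% and 0.99% against 7.11% and 5.38%. Summed dissociation and stress markers were also higher in the CerS4epi-/- sums of the IFE. They stood at 7998 and 5565 against 10960 and 10520 CPM in spinous and 11380 and 9504 against 14850 and 15470 CPM in basal-spinous cells. Granular cells had 5752 and 3929 against 7442 and 7315 CPM, and basal cells 14710 and 14210 against 16000 and 17920 CPM. In uHF cells the genotypes overlapped (13200 and 10700 against 11820 and 11540 CPM), as in the inner bulge and Lhx2/Cd34 gates. The limit on mitochondrial counts removed 68 and 91 control and 363 and 316 CerS4epi-/- barcodes. Their part in the stefin differences was not tested.

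The same held in the neighbouring layers. In basal-spinous cells Stfa1 rose from 8.03 and 5.96 to 66.1 and 40.6 CPM (3.0 ± 0.25, adjusted p = 0.000286) and Stfa3 from 6.06 and 4.43 to 81.0 and 34.2 CPM (3.53 ± 0.39, adjusted p = 0.00166). In granular cells Stfa1 rose from 3.22 and 5.41 to 13.7 and 9.71 CPM (1.5 ± 0.27, adjusted p = 0.00543) and Stfa3 from 2.06 and 0.667 to 14 and 12.3 CPM (3.42 ± 0.34, adjusted p = 0.000248). CerS4epi-/- mouse 1 was the higher of its group in each of these sums.

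In basal cells Stfa1 went from 2.28 and 2.08 CPM in control to 23.5 and 11.1 CPM in CerS4epi-/- mice (3.07 ± 0.39, adjusted p = 0.00375). Basal Stfa3 went from 23.7 and 8.21 to 114 and 37.0 CPM (2.31 ± 0.53, adjusted p = 0.0358), with the groups still apart but each spread over about 3-fold. Its call was lost in 4 of 15 alternatives, among them the fits without control mouse 2 (adjusted p = 0.0613) and without CerS4epi-/- mouse 1. In uHF cells Stfa3 rose from 4.33 and 2.41 to 53.1 and 44.3 CPM (3.88 ± 0.25, adjusted p = 8.91e-06). Stfa1 was also called there (2.34 ± 0.66, adjusted p = 0.0401), on control sums of 5.5 and 0.5 counts, and lost in 4 of 16 alternatives, among them the fits without control mouse 2 and without CerS4epi-/- mouse 1. Stfa1, Stfa2 and Stfa3 are also known from neutrophils, and the 8 neutrophil markers summed to at most 1.39 CPM in any basal, spinous, granular or uHF sum.

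The stefins lie in a cluster on chromosome 16, have start regions that are alike and were higher together in the IFE of CerS4epi-/- mice. In GRCm39, the build of the tables, Stfa1 spans chr16:36093823-36105817 (plus strand), their stefin-like neighbour Cstdc5 chr16:36179743-36191595 (minus strand) and Stfa3 chr16:36270893-36275884 (minus strand). The sequences below are the 250 bases before the RefSeq start of each gene, in the build GRCm38.p6 and read 5′ to 3′ on the strand of the gene, at chr16:36276898-36277147 (Stfa1), chr16:36367571-36367820 (Cstdc5) and chr16:36455393-36455642 (Stfa3). Capitals mark the 5 runs of 12 or more bases that all 3 share.
Stfa1: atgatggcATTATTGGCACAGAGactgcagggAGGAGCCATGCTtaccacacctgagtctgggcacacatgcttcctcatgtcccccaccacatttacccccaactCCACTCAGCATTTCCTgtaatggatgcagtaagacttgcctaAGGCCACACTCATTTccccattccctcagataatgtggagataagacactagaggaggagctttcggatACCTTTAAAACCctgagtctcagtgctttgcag
Cstdc5: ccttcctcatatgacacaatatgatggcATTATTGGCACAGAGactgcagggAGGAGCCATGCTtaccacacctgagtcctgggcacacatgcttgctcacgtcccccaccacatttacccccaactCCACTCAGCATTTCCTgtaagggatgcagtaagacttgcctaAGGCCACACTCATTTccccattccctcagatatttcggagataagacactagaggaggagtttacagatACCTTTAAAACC
Stfa3: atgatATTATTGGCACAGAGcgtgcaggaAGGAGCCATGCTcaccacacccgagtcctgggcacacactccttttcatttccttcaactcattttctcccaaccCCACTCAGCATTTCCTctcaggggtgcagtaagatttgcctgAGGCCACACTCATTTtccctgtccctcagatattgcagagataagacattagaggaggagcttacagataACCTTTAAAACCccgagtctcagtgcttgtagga
The Stfa1 region is 83.7% identical to that of Stfa3 and 81.3% to that of Cstdc5, whereas it is 54.0% identical to that of Ctsl, a gene of another family. The longest shared run has 16 bases and was found before 6 genes in 32851 RefSeq start regions of the same length, all of them cystatin genes or Gm7260. The TATA box TATAAA, the AP-1 site TGACTCA, the E-box CACGTG and the GC box GGGCGG were searched on both strands, and the 3 stefin regions hold none of these letters.

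Their reads are not fully separable either. Of the entries for Stfa1 27.37% were not whole numbers, as were 21.93% for Cstdc5, because the authors' counting divides a read that fits several genes between them. Stfa1 and Cstdc5 values are therefore uncertain as to which of these genes they belong to. For Stfa3 0.21% of entries were not whole, so its rise does not rest on divided reads. Cstdc5 rose in the same classes, in spinous cells from 42.2 and 32.7 to 465 and 240 CPM (3.23, adjusted p = 0.00114) and in basal-spinous cells from 12.4 and 13.4 to 290 and 157 CPM (4.15, adjusted p = 9.96e-05). In basal, granular and uHF cells its differences were 3.46, 2.70 and 3.52 (adjusted p = 0.00431, 8.25e-05 and 8.91e-06).

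Cstb, the ubiquitous stefin B, was higher in CerS4epi-/- mice in 3 classes of the IFE and in the 3 follicle gates. In basal cells it measured 366 and 367 CPM in control and 559 and 788 CPM in CerS4epi-/- mice (0.93 ± 0.14, adjusted p = 0.00668). It was called in all 15 alternatives, but its size went from 0.354 in cells without follicle marker counts to 1.753 with gates on thinned counts. Summed uHF markers (371 and 357 against 626 and 1051 CPM) and outer bulge markers (117 and 87.5 against 297 and 294 CPM) were also higher in the CerS4epi-/- basal sums. The differences in basal-spinous cells (0.33 ± 0.07, adjusted p = 0.0335) and granular cells (0.35 ± 0.08, adjusted p = 0.0188) were small, and the groups did not overlap in either. The call in basal-spinous cells was lost in 5 of 15 alternatives. In spinous cells Cstb differed by 0.20 (adjusted p = 0.261).

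In the uHF Cstb stood at 1603 and 1177 CPM in control and at 4806 and 6477 CPM in CerS4epi-/- mice, a difference of 2.08 ± 0.17 (adjusted p = 4.4e-05). In the Lhx2/Cd34 gate it went from 2378 and 2337 to 8226 and 10630 CPM (2.03 ± 0.19, adjusted p = 0.000127), and in the inner bulge gate from 469 and 304 to 3514 and 7293 CPM (3.82 ± 0.31, adjusted p = 9.61e-08). Each of these calls held in every alternative run. The median uHF cell held 6.76 and 6.75 Cstb counts per 10000 in the control and 17.6 and 28.0 in the CerS4epi-/- mice, so the shift involved the typical cell of the class. Medians of the inner bulge gate were close, at 4.36 and 2.13 against 4.94 and 5.84, and the cells at the 90th percentile were far apart, at 8.32 and 7.64 against 85.5 and 238.

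Cst6 was higher in the uHF and lower in no class by the test. In uHF cells it measured 7256 and 6866 CPM in control and 14500 and 19580 CPM in CerS4epi-/- mice, without overlap (1.33 ± 0.14, adjusted p = 0.000194). The cell at the 90th percentile held 213 and 179 counts per 10000 in the control and 394 and 550 in the CerS4epi-/- mice, while the medians, at 27.2 and 22.7 against 26.0 and 39.9, overlapped. In the inner bulge gate Cst6 went from 1297 and 290 to 4372 and 8609 CPM (3.04 ± 0.43, adjusted p = 9.84e-05), a call lost under DESeq2, without the 5% deepest cells and with stricter limits of the gate.

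The Lhx2/Cd34 gate stood apart from the uHF. There Cst6 measured 32030 and 28790 CPM in control and 21700 and 16290 CPM in CerS4epi-/- mice, again without overlap but below the control, and the difference of −0.65 ± 0.20 missed the threshold (adjusted p = 0.0703), although it passed in 7 alternatives. The median cell held 164 and 273 counts per 10000 in the control and 42.7 and 37.0 in the CerS4epi-/- mice. The gate held 85 and 60 control but 219 and 179 CerS4epi-/- cells. Cst3 was lower there as well, from 4424 and 4702 to 2637 and 1941 CPM (−0.96 ± 0.20, adjusted p = 0.0115), the sole lower call among the 9 genes, and it was lost with stricter limits of the gate.

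**Figure D4:**
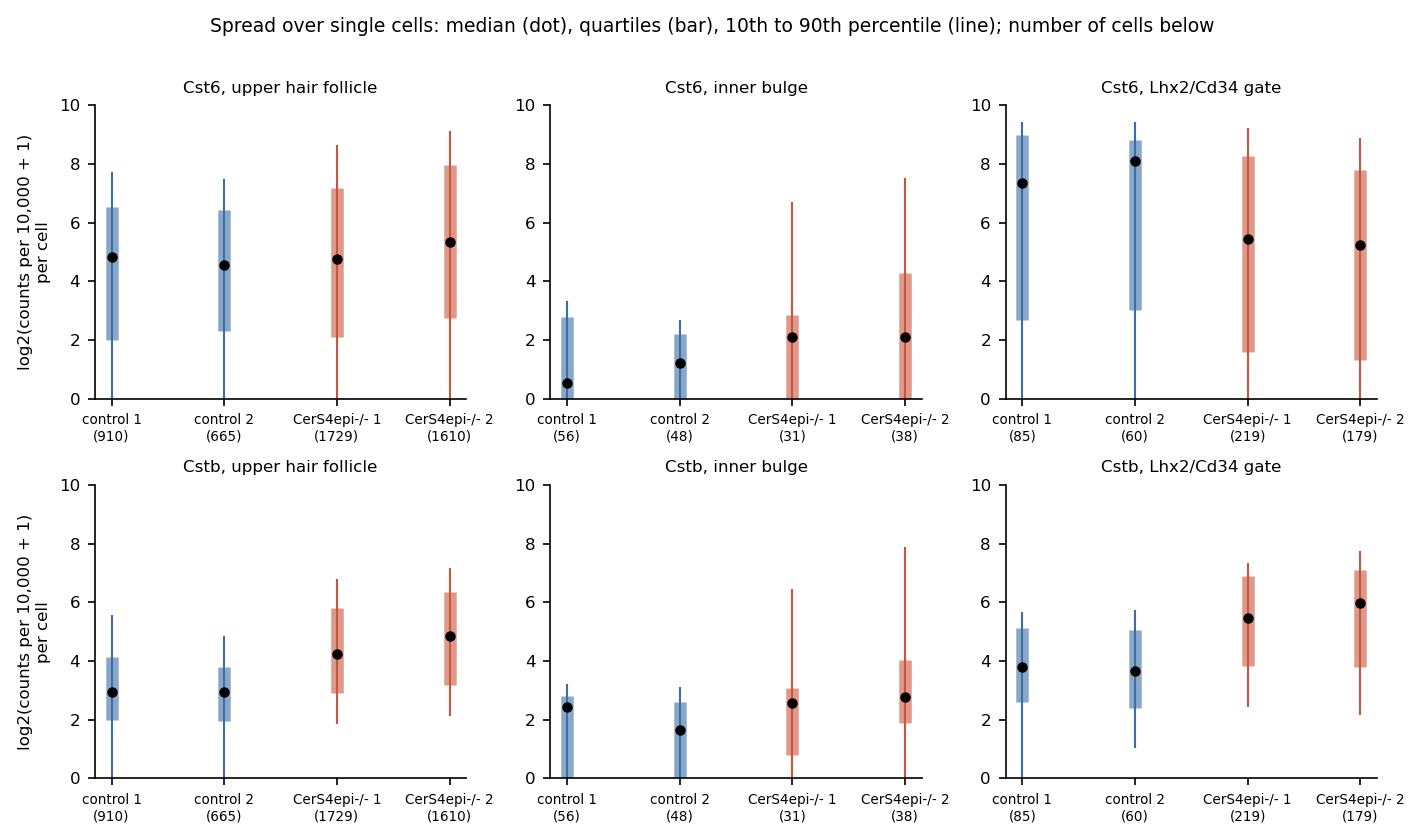
Spread of Cst6 and Cstb over single cells of the uHF, inner bulge and Lhx2/Cd34 gates, as log2(counts per 10000 + 1), per mouse (dot: median, thick bar: quartiles, thin line: 10th to 90th percentile, number of cells below). Cstb medians of both CerS4epi-/- mice lie above those of both control mice in the uHF and Lhx2/Cd34 gates, while the Cst6 medians lie below them in the Lhx2/Cd34 gate.

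In the IFE the Cst6 difference was largest in basal cells, from 36.3 and 43.0 to 182 and 186 CPM (2.27 ± 0.10, adjusted p = 3.7e-05), and it was 1.082 in cells without follicle marker counts and 3.413 with gates on thinned counts. This is the class whose shares of cells with Cst6 did not exceed those of T cells, and free Cst6 was higher in the CerS4epi-/- libraries as well. The part of free RNA, and of the uHF markers given for this class, in the basal difference was not tested. In basal-spinous and spinous cells Cst6 differed by −0.12 and −0.10 (adjusted p = 0.737 and 0.655).

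In granular cells Cst6 measured 925 and 841 CPM in control and 1114 and 1337 CPM in CerS4epi-/- mice (0.56 ± 0.09, adjusted p = 0.00227). Among granular cells without any count of a follicle marker, a selection added after the data were seen, the difference was 0.15 (adjusted p = 0.443) and that of Cstb 0.09 (adjusted p = 0.699), so neither call held among these cells. The median granular cell held 3.95 follicle marker counts per 10000, so this selection removed many cells. Free Krt79, which is among these markers, stood at 377 and 323 CPM in the control and 747 and 728 CPM in the CerS4epi-/- libraries. The selection need not act alike in the genotypes, and its part was not tested. The Cstb call was also lost without control mouse 1 (adjusted p = 0.0732) and without the 5% deepest cells. In Langerhans cells Cst6 stood at 488 and 590 against 3278 and 2595 CPM (2.43, adjusted p = 0.0626, passed in 11 alternatives), and in T cells at 142 and 222 against 125 and 1983 CPM, where 1 mouse set the mean.

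Among the proteases Ctsl showed the clearest difference, called in the 3 follicle gates. In uHF cells it measured 31.5 and 32.8 CPM in control and 186 and 276 CPM in CerS4epi-/- mice (2.91 ± 0.20, adjusted p = 1.62e-05). In the Lhx2/Cd34 gate it went from 58.1 and 103 to 351 and 651 CPM (2.69 ± 0.35, adjusted p = 0.000923), and in the inner bulge gate from 23.8 and 19.6 to 263 and 449 CPM (4.02 ± 0.40, adjusted p = 1.49e-06), on 7 and 4 control and 50 and 103 CerS4epi-/- counts. The sums of the groups did not overlap in any of the 3 gates. Few cells carried the inner bulge value, since 10.7% and 6.25% of the control and 12.9% and 23.7% of the CerS4epi-/- cells held a Ctsl count, of 31 and 38 CerS4epi-/- cells. In basal cells Ctsl stood lower instead, at 117 and 128 against 83.3 and 98.2 CPM, a difference of −0.38 ± 0.10 that missed the threshold (adjusted p = 0.0534), and in granular cells the ranges overlapped (1184 and 1086 against 1196 and 1155 CPM). In the IFE cells without a follicle marker count, a selection with the limits given above, granular Ctsl was called higher (1.04, adjusted p = 5.56e-05) and basal Ctsl lower (adjusted p = 0.00676).

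More uHF cells held a Ctsl count, 4.95% and 4.21% in control and 12.4% and 15.9% in CerS4epi-/- mice, while the T cells reached at most 7.58%. Thinned to 1200 counts per cell the shares were 2.53% and 1.35% against 6.25% and 9.94%, and in the Lhx2/Cd34 gate 5.88% and 6.67% against 26.9% and 39.1%. Free Ctsl was alike in the libraries, at 151 and 154 against 155 and 178 CPM. Of the uHF cells with a Ctsl count, thinned alike, 65.2% and 77.8% of the control (of 23 and 9 cells) and 94.4% and 95.6% of the CerS4epi-/- cells (of 108 and 160) also held a Cst6 count, where 70.3% and 70.7% of all control and 71.1% and 75.8% of all CerS4epi-/- uHF cells did. In basal cells 4.95% and 4.72% of the control and 11.6% and 13.3% of the CerS4epi-/- cells with Ctsl held Cst6.

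Ctsb was higher in CerS4epi-/- mice in the same follicle gates. It measured 618 and 506 against 1422 and 1568 CPM in the uHF (1.47 ± 0.12, adjusted p = 3.54e-05), 414 and 378 against 1533 and 2074 CPM in the inner bulge gate (2.21 ± 0.23, adjusted p = 3.17e-06) and 1310 and 974 against 2339 and 2530 CPM in the Lhx2/Cd34 gate (1.12 ± 0.19, adjusted p = 0.00433). The last call was lost when the gates were set on thinned counts. In basal cells Ctsb was flat, at 459 and 437 against 471 and 457 CPM, and its difference of 0.11 did not pass (adjusted p = 0.409).

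Ctsd was higher in the uHF, from 196 and 144 to 325 and 409 CPM (1.16 ± 0.15, adjusted p = 0.000629), and in basal cells, from 44.0 and 41.1 to 53.6 and 55.7 CPM (0.42 ± 0.09, adjusted p = 0.0296), the latter lost in 6 of 15 alternatives. Lgmn, the foremost target of cystatin E/M, was called in no class. It measured 10.7 and 7.23 against 7.75 and 7.93 CPM in the uHF (−0.17, adjusted p = 0.744), at which level only large differences are detectable. Cst3 was not called outside the Lhx2/Cd34 gate and differed by −0.06 in the uHF (adjusted p = 0.748).

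Beside the follicle differences the composition of the gates moved. In the inner bulge gate the summed uHF markers were at 1311 and 1164 CPM in control and 6759 and 10030 CPM in CerS4epi-/- mice, and the summed spinous markers at 11060 and 7439 against 548 and 514 CPM. In the uHF the summed spinous markers went from 8039 and 10420 to 5845 and 5615 CPM and the inner bulge markers from 389 and 341 to 63.1 and 56.2 CPM. In the Lhx2/Cd34 gate the spinous markers went from 11490 and 15670 to 4421 and 2591 CPM, the inner bulge markers from 520 and 684 to 51.5 and 114 CPM and the Langerhans markers from 45.2 and 11.9 to 116 and 141 CPM. The part of these shifts in the follicle differences was not tested. When the uHF cells alone were divided into those high and those low in basal keratins, Cstb, Cst6, Stfa3, Ctsl, Ctsb and Ctsd were called higher in both portions. This division was added after the data were seen. Both portions come from the same mice, and the share of all genes called in them is not given here. It does not separate cells by the spinous or inner bulge markers that shifted, so it does not address those shifts.

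Start regions of 2 proteases that were higher in CerS4epi-/- uHF cells are shown for their E-box, whose part in the differences was not tested. They are again the 250 bases before the RefSeq start in GRCm38.p6, on the strand of the gene, at chr13:64370521-64370770 (Ctsl, minus strand) and chr7:142387828-142388077 (Ctsd, minus strand). Capitals mark the E-box CACGTG in both and, in Ctsd, the GC box GGGCGG on either strand.
Ctsl: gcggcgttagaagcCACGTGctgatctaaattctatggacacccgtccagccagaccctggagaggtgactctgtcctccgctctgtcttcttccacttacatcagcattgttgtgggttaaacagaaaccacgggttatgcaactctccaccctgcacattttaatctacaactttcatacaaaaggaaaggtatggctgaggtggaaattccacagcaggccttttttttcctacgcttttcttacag
Ctsd: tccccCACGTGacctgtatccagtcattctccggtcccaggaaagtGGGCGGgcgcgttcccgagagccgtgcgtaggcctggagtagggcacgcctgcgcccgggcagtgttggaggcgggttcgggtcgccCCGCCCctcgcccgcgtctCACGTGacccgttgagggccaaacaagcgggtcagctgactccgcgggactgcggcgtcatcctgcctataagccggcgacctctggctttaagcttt
The E-box stood 236 to 231 bases before the start of Ctsl, and 245 to 240 and 98 to 93 bases before that of Ctsd. It occurs in 6.02% of all start regions of this length, and the GC box in 32.7%. In the other matched genes a GC box was found before Cst3 and Lgmn, and an E-box before the second start of Lgmn. The table matched 6 of the 9 genes and holds no entry for Cst6, Cstb and Ctsb. In GRCm39 Cst6 lies at chr19:5394733-5399602, Cst3 at chr2:148713635-148717887, Cstb at chr10:78261499-78263991, Ctsb at chr14:63358384-63383372, Ctsd at chr7:141929646-141941775, Ctsl at chr13:64507151-64518704 and Lgmn at chr12:102359122-102414682.

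The difference between genotypes was itself compared between classes, with basal cells as the reference. In the uHF the differences of Ctsl, Ctsb, Cstb and Ctsd exceeded those in basal cells by 3.28, 1.38, 1.17 and 0.75 on the log2 scale (adjusted p = 2.66e-10, 3.18e-07, 0.0316 and 0.00504). The call of Cstb was lost in 5 of 14 alternatives, with values from 0.217 to 1.723 (adjusted p up to 0.756), and that of Ctsd in 3, with values down to 0.155. Here 1.59% of all genes were called in the same direction. In the inner bulge gate Cstb, Ctsl and Ctsb were called (0.258% of all genes), and in the Lhx2/Cd34 gate Cstb, Ctsl and Ctsb higher (1.61%) and Cst6 and Cst3 lower (2.36%). In granular cells the difference of Stfa1 was smaller than in basal cells (−1.56 ± 0.42, adjusted p = 0.0311, 1.44% of all genes). The calls of Cstb and Cst3 in the Lhx2/Cd34 gate and of Stfa1 in granular cells were each lost in 6 of 14 alternatives, and that of Cst6 in 3. No gene of the 9 was called in basal-spinous (0.132% of all genes), spinous (1.1%), Langerhans (0.0595%) or T cells (0.165%), with Cst6 in spinous cells nearest at −2.37 (adjusted p = 0.052). At an unadjusted p under 0.05 there were 2, 5, 0 and 1 of the 9 in these classes, and DESeq2 called 0.

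The ratio of inhibitor to protease transcripts summarises the pattern. It was taken as the summed CPM of the 5 cystatins over that of Lgmn, Ctsl and Ctsb, leaving out the aspartic protease Ctsd, and it is a ratio of transcripts, not of activity. Transcripts of these 5 cystatins exceeded those of Lgmn, Ctsl and Ctsb in every class and mouse, except in CerS4epi-/- granular cells without follicle marker counts. Among such granular cells the ratio was 1.07 and 1.59 in control and 0.672 and 0.640 in CerS4epi-/- mice. The stefin Csta1 is not in the sum. Its granular level, given below, is near that of the 5 cystatins together (2397 and 2610 CPM in control, 2567 and 2857 CPM in CerS4epi-/- mice). The granular ratio thus depends on the genes listed. Across the IFE the ratio was 3.16 and 3.37 in control and 4.33 and 4.54 in CerS4epi-/- basal cells, 14.6 and 17.5 against 14.1 and 15.2 in spinous cells, and fell to 1.34 and 1.61 against 1.48 and 1.66 in granular cells. The genotypes did not overlap in basal cells and overlapped in the spinous and granular classes as a whole.

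In the 3 follicle gates the ratio was lower in CerS4epi-/- mice. Both sums were higher in the uHF and inner bulge gates. In the Lhx2/Cd34 gate the protease sum was higher, but the inhibitor sum was lower, at 38840 and 35830 against 32590 and 28880 CPM. In the uHF the inhibitor sum went from 10300 and 9482 to 20720 and 27400 CPM and the protease sum from 660 and 546 to 1616 and 1851 CPM, which gave ratios of 15.6 and 17.4 against 12.8 and 14.8. Inner bulge ratios were 18.8 and 17.7 against 9.34 and 9.40, and in the Lhx2/Cd34 gate 27.8 and 32.9 against 12.1 and 9.05. The genotypes did not overlap in any of the 3 gates, but with gates on thinned counts the inner bulge ratios did (13.8 and 19.8 against 6.63 and 22.4). The direction depends on the pair of genes. Cst6 over Lgmn and Ctsl was 172 and 172 against 74.7 and 69.0 in the uHF, whereas Cstb over Ctsb and Ctsl was 2.47 and 2.19 against 2.99 and 3.51.

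**Figure D5:**
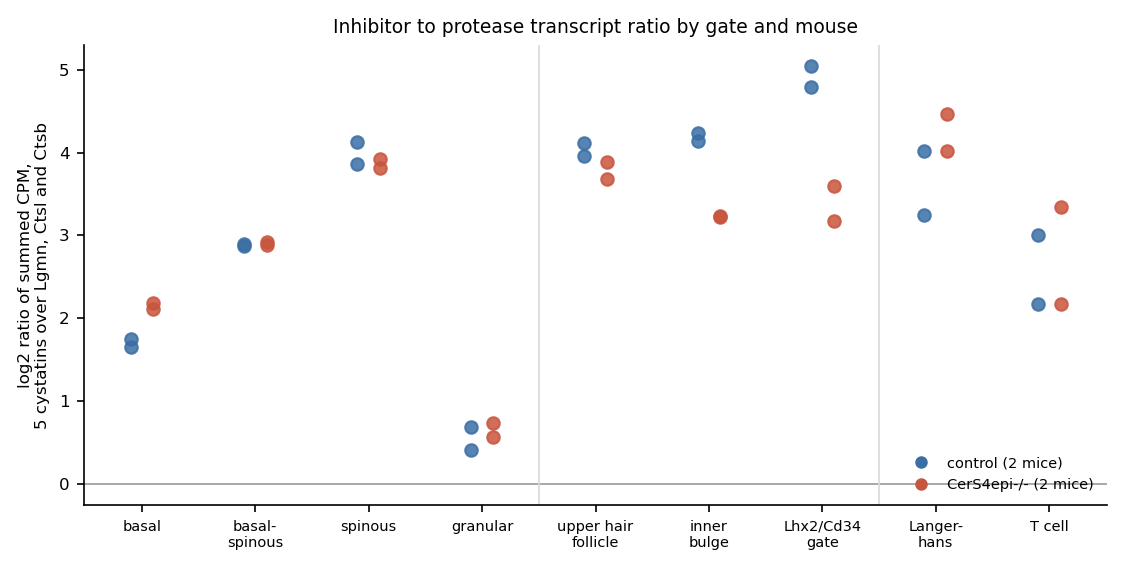
Summed CPM of Cst6, Cst3, Cstb, Stfa1 and Stfa3 over that of Lgmn, Ctsl and Ctsb, as log2 ratio by cell class, 1 dot per mouse (blue control, red CerS4epi-/-). The granular dots lie lowest, at linear ratios of 1.34 to 1.66, and the genotypes separate most in the Lhx2/Cd34 gate.

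Over the 36 sums of 9 classes and 4 mice, the levels of the members, as log2(CPM + 1), varied together to different degrees. Pearson's r was 0.82 between Cst6 and Cstb, 0.82 between Cst6 and Ctsd, 0.77 between Cst6 and Ctsb and 0.67 between Ctsl and Ctsb, but 0.48 between Stfa1 and Stfa3. The sums share mice and classes and are not independent, so these are descriptions without a test. Among all genes of sufficient level the closest to Cst6 were Sprr1a (0.94), Qsox1 (0.91) and Krt17 (0.91), to Cstb Rabgap1l (0.91) and Cystm1 (0.87), and to Ctsl Chic2 (0.87). Insig2 (0.88) and Plet1 (0.88) were nearest to Ctsb, Tgm5 (0.90) and Slc40a1 (0.90) to Ctsd, Dmpk (0.86) and Cd24a (0.85) to Cst3, Cstdc5 (0.86) and Mt4 (0.76) to Stfa1, Arc (0.73) and Igfbp4 (0.70) to Stfa3, and Pdcd2l (0.80) and Atp8b1 (0.74) to Lgmn.

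The wider lists of the pathway moved as follows between the genotypes. Of all genes 4.34% were higher in basal, 2.42% in basal-spinous, 2.13% in spinous, 8.04% in granular and 7.6% in uHF cells. In uHF cells 698 of 11346 genes were lower, and in granular cells 568 of 11022. Of the other cystatin family genes, 2 of 4 tested were higher in basal cells, 2 of 3 in basal-spinous, 1 of 5 in spinous and 3 of 4 in granular cells, and in uHF cells 2 of 3 were higher and 1 lower. Csta1 was that lower gene, at 84.0 and 73.7 against 58.3 and 44.6 CPM (−0.56, adjusted p = 0.0256), whereas in granular cells it was slightly higher, at 2178 and 2192 against 2643 and 2628 CPM (0.36, adjusted p = 0.00483). Granular Stfa2 went from 1.37 and 1.22 to 11.3 and 5.79 CPM (2.85, adjusted p = 0.00122). In the uHF Stfa2 had 0 counts in both control mice and 17.5 and 15 in the CerS4epi-/- mice.

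Of the other cathepsins 2 of 8 tested were higher in basal and 2 of 6 in uHF cells (4.34% and 7.6% of all genes). These were Ctsc (0.70, adjusted p = 0.0101) and Ctsh (0.33, adjusted p = 0.0476) in basal cells, and in the uHF Ctsf, from 40.5 and 38.5 to 98.1 and 113 CPM (1.47, adjusted p = 5.3e-05), and the serine carboxypeptidase Ctsa, from 112 and 117 to 204 and 296 CPM (1.19, adjusted p = 0.000818). Among 22 lysosomal and cornification partners tested in granular cells 11 were higher and 0 lower, where 8.04% of all genes were higher. Casp14, the caspase of cornification, went from 780 and 804 to 1551 and 1339 CPM (0.96), and the transglutaminases Tgm1 and Tgm5 differed by 0.53 and 0.48. In basal cells 1 of 23 of these partners was called, Tgm3 (0.63). In uHF cells 5 of 24 were higher and 2 lower, and in the inner bulge gate 0 of 17 were called. The Lhx2/Cd34 gate had 1 of 21 higher and 3 lower (3.53% and 4.55% of all genes).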

How the data were processed

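The tables hold expected counts, which the authors made from BD Rhapsody reads with fastp 0.23.2 and STARsolo (STAR 2.7.10a) on GRCm39 with a Gencode annotation of protein-coding genes and lncRNAs, dividing reads that fit several genes. Reads were counted as unique molecules over exons and introns. After the study's limits, barcodes under 1200 counts or over 20% mitochondrial counts were dropped. Cells were gated on marker lists, with limits set after the data were seen, and 129 cells fell in no gate. Doublets were not removed, and leaving out the 5% deepest cells was an alternative. A gate was tested where every mouse had at least 20 cells, which left out the sebaceous (74 cells) and fibroblast (19 cells) gates.

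Counts were summed per gate and mouse, rounded, normalised by TMM and tested in edgeR 4.0.16 (R 4.3.3) with the quasi-likelihood test, after filterByExpr and with Benjamini-Hochberg adjustment over all genes. The study's Methods used random pseudoreplicates of cells, which were not used here because the mouse is the replicate. Comparisons of classes used all 4 mice with a mouse term. Nothing in the labels gives litters or capture dates, so p-values measure the spread between these mice. The tests were run on simulated data first. Alternatives were DESeq2 1.42.0, other scalings, no filter, a replicate block, each mouse left out and other cell limits. The 9 genes and the lists were chosen with earlier results of these data known. All members were named, and of each list up to 5 genes called in each direction, by the size of the change. The nearest genes were named by Pearson's r over sums of genes that reached 10 CPM. RefSeq start regions came from GRCm38.p6, and the gene positions from a later Gencode release on GRCm39. Some genes that these rules name are not reported here.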

Additional observations from a re-analysis of the deposited data

Results flagged for a closer look

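These results were singled out because the difference between genotypes in a class departed from that in basal cells by a test of the difference itself (edgeR's quasi-likelihood test on the term of genotype by class, Benjamini-Hochberg adjusted over 15116 genes). Of 72 such tests of the 9 genes, 10 were higher and 3 lower. Groups of 2 mice are too small for a test of single outlying samples.

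In the uHF the departures were 3.28 for Ctsl (adjusted p = 2.66e-10), 1.38 for Ctsb (3.18e-07), 1.17 for Cstb (0.0316) and 0.75 for Ctsd (0.00504), on the log2 scale. In the inner bulge gate they were 2.82 for Cstb (2.28e-06), 4.36 for Ctsl (8.69e-06) and 2.07 for Ctsb (6.71e-08). In the Lhx2/Cd34 gate they were 3.14 for Ctsl (3.15e-07), 1.21 for Cstb (0.0225) and 1.11 for Ctsb (4.81e-05), and below basal cells −2.78 for Cst6 (0.00494) and −1.01 for Cst3 (0.036). In granular cells it was −1.56 for Stfa1 (0.0311).

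Several of these calls did not hold throughout 14 alternatives. Those of Cstb and Ctsd in the uHF were lost in 5 and 3, with values down to 0.217 and 0.155. In the Lhx2/Cd34 gate Cstb and Cst3 were lost in 6 each, Cst6 in 3, and Ctsl and Ctsb with gates on thinned counts, where Ctsb stood at 0.122. Stfa1 in granular cells was lost in 6. The barcodes leave it possible that the genotypes were captured in separate runs. In the basal reference the shares of cells with Cst6 did not exceed those of T cells, so RNA from other cells may enter it. The part of either was not tested.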

How the results depend on the processing

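Of 84 differences called, 50 were called under every one of the alternatives that gave a value, 1 changed sign and 41 others were called under at least 1 alternative. The higher calls between genotypes, 28 as reported, ranged from 22 (cells under 10% mitochondrial counts) to 31 (no filter). Lower calls, 1 as reported, were 4 with no filter, 3 with scaling by total counts, 2 with gates on thinned counts, without the 5% deepest cells or in IFE cells without follicle markers, and 2 to 4 with 1 mouse left out. Lower calls between classes, 13 as reported, were 5 without the mouse term and 8 to 14 with 1 mouse left out. For genotype by class, higher calls (10) were 4 on thinned gates and 7 to 14 with 1 mouse left out. Lower calls (3) were 1 with DESeq2 or without follicle markers, 9 with no filter, 0 under 10% mitochondrial counts, 14 on thinned gates and 1 to 8 with 1 mouse left out. In T cells against basal cells Cst6 went to −0.573 on thinned gates (adjusted p = 0.501), and its genotype difference against basal cells to −2.651 without CerS4epi-/- mouse 2 (adjusted p = 0.00794, edgeR). The causes were not tested.

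The labels give the mice of both genotypes the numbers 1 and 2 only. Same-numbered mice deviated with a correlation of −0.057 to 0.345 over the classes, highest in spinous cells. Nothing in the labels says that a number marks a shared litter or batch, so the mice were not treated as pairs. With the replicate block 31 higher and 2 lower calls were made between genotypes.

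The log2 ratio of inhibitors to proteases, CerS4epi-/- minus control, depended on the genes in it. In basal cells 0.442 became 2.599 with Cst6 over Lgmn and Ctsl and 0.896 with Cstb over Ctsb and Ctsl, 0.63 on thinned gates and 0.336 without follicle markers. In basal-spinous cells 0.012 became 0.173 and 0.287 with those pairs, 0.072 with stricter limits and 0.05 without follicle markers. In spinous cells −0.126 became 0.254 with the Cst6 pair. In granular cells 0.099 became 0.419 with the Cst6 pair and −0.992 without follicle markers. The uHF value of −0.257 became −1.258 and 0.48 with the pairs, and that of the Lhx2/Cd34 gate, −1.534, became −2.985 and 0.719. In the inner bulge gate −0.96 became −0.007 and 1.394 with the pairs, −1.22 under 10% mitochondrial counts, −1.041 with 2000 counts per cell, −0.44 on thinned gates, −0.879 without the deepest cells and −0.871 with stricter limits. Depth limits Lgmn, Stfa1 and Stfa3, which were too scarce to test in the 4 smallest gates.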

Other observations

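A small set of 129 cells fell in no gate, 17 to 48 per mouse, and was led by Rptn and Klk10, genes of the late differentiation of keratinocytes. The globin genes Hbb-bs, Hbb-bt and Hba-a2 were also among its leading genes. Melanocyte markers summed to 409 CPM in CerS4epi-/- mouse 1 and to 0 in the other mice, so the set is mixed. Its Cst6 stood at 23170 and 20660 CPM in control and 54780 and 51170 CPM in CerS4epi-/- mice. Cstb was at 1656 and 669 against 8988 and 6327 CPM, Ctsl at 1071 and 273 against 5580 and 2971 CPM, and Ctsb at 5153 and 1288 against 7697 and 5584 CPM. Ctsd was at 471 and 372 against 956 and 685 CPM. Cst3 overlapped, at 1113 and 768 against 1123 and 1025 CPM, as did Lgmn and Stfa1, and Stfa3 had 0 counts. The share of all genes with groups apart was not taken in this set. The cells were left out of the comparisons and no test was made on them.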
